A study of Homo sapiens with 8 samples.

Results

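The subject is a set of 40 genes for ribosome biogenesis and nucleolar factors, listed by symbol with earlier results of these data known, and all 40 were found among the 61544 entries of the deposited count tables. RNA sequencing measured their transcripts in HEL, an established human erythroleukaemia line, and in MOLM-13, an established human monocytic leukaemia line with a KMT2A fusion. The 4 groups were HEL with DDX6 shRNA, HEL with control shRNA, MOLM-13 with DDX6 shRNA and MOLM-13 with control shRNA, each with 2 libraries. All cells had received a lentivirus and puromycin selection, so the controls carried a vector as well, and the HEL column names give 1 hairpin number for the DDX6 shRNA. The targeted gene, DDX6, encodes a DEAD-box helicase on which P-bodies depend, the cytoplasmic granules that hold untranslated mRNA, and the comparison asks which transcripts changed when it was reduced. Nothing in the labels states whether the 2 libraries of a group were grown separately. The p-values thus reflect library-to-library spread alone, pooled over the groups and largely over genes, and that spread can be technical.

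Ribosomes are built in the nucleolus, where RNA polymerase I transcribes a long ribosomal RNA precursor. Small nucleolar ribonucleoproteins (snoRNPs) modify that RNA: box C/D particles guide ribose methylation and box H/ACA particles guide pseudouridylation. Assembly factors then cleave and fold the precursor into the small and the large ribosomal subunit. The genes of this pathway are classic targets of the transcription factor MYC, which binds the E-box sequence CACGTG, and growing leukaemia cells depend on the pathway's output.

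The libraries held 10719829 to 12093544 counts each for HEL and 7888318 to 8174432 counts each for MOLM-13. Levels are given as CPM, counts relative to the TMM-scaled library total, where 3 counts are worth 0.238 to 0.271 CPM for HEL libraries and 0.378 to 0.399 CPM for MOLM-13 libraries. DDX6 itself stood at 96.8 and 94.8 CPM in HEL DDX6 shRNA libraries, against 177 and 180.0 CPM in HEL control libraries, and at 67.9 and 74.2 CPM in MOLM-13 DDX6 shRNA libraries, against 126 and 122 CPM in MOLM-13 control libraries. Its transcript had fallen in both lines (log2 fold change -0.90 ± 0.07 (SE) in HEL and -0.80 ± 0.08 in MOLM-13, edgeR adjusted p of 3.54e-14 and 2.56e-11). The identity of the lines was checked with 10 erythroid and megakaryocytic markers, which summed to 2730 to 2790 CPM in HEL DDX6 shRNA, 2540 to 2580 CPM in HEL control, 29.7 to 36.2 CPM in MOLM-13 DDX6 shRNA and 31.0 to 36.3 CPM in MOLM-13 control libraries. The 10 myelomonocytic markers summed to 189 CPM in HEL DDX6 shRNA, 163 to 165 CPM in HEL control, 8020 to 8400 CPM in MOLM-13 DDX6 shRNA and 6950 to 7190 CPM in MOLM-13 control libraries. MPO and ELANE had no count in any HEL library. The 6 lymphoid markers summed to 27.4 to 31.8 CPM in HEL DDX6 shRNA against 14.2 to 15.5 CPM in HEL control libraries, and to 45.2 to 51.6 CPM in MOLM-13 DDX6 shRNA against 8.32 to 8.89 CPM in MOLM-13 control libraries. The 6 stromal and epithelial markers summed to 72.5 to 76.0 CPM in HEL DDX6 shRNA against 54.4 to 59.4 CPM in HEL control libraries, and to 12.5 to 16.1 CPM against 11.1 to 13.4 CPM in the same groups of MOLM-13. The part of these marker changes in the results below was not tested. In bulk RNA, fewer cells with a transcript and less of it per cell cannot be told apart.

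Promoter windows show what a part of these genes share in sequence. RefSeq windows (GRCh38.p14, 250 bases before to 50 after the annotated start) were on hand for 34 of the 40 members. The E-box CACGTG, which reads the same on both strands, was found in 16 of them (47.1%), against 2396 of 27305 genes with a window (8.77%) and 1386 of the 11375 tested genes with one (12.2%). A match is a description of the letters only. A window is shown for 8 members, which are those with a window whose call in a line was kept in each of 14 alternative analyses. FBL fell in both lines, NOP56, PES1, WDR12 and MRTO4 fell in MOLM-13, and NOP10, UTP4 and UTP15 rose in HEL. The E-box is in 5 of the 8. Each runs from 80 bases before to 25 after the start, 5′ to 3′ on the gene's strand, with the E-box in capitals.
FBL, minus strand, chr19:39846355-39846459: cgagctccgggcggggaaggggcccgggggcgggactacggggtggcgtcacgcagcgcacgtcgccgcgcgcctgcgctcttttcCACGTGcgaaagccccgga
NOP56, plus strand, chr20:2652552-2652656: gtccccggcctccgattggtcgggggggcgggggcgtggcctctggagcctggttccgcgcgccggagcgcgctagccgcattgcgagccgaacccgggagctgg
NOP10, minus strand, chr15:34343112-34343216: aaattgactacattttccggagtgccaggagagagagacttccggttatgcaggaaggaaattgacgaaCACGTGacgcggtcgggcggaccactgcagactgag
UTP4, plus strand, chr16:69132569-69132673: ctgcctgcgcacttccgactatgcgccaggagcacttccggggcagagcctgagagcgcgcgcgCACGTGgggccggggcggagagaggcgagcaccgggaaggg
UTP15, plus strand, chr5:73565663-73565767: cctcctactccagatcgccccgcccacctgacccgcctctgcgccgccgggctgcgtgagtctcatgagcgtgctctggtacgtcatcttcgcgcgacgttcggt
PES1, minus strand, chr22:30591886-30591990: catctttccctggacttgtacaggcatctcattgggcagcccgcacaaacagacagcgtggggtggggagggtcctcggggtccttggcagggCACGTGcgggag
WDR12, minus strand, chr2:202911649-202911753: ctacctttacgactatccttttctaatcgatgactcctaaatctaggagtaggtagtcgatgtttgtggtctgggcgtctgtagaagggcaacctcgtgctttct
MRTO4, plus strand, chr1:19251725-19251829: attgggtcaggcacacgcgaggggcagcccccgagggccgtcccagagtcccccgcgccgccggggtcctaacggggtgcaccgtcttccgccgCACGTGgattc
The E-box began 7 bases into the transcribed side in FBL, 14 in PES1 and 15 in MRTO4, counting the annotated start as 1, and 11 bases before the start in NOP10 and 16 before it in UTP4. The windows of NOP56, UTP15 and WDR12 held none.

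The set as a whole did not move in 1 direction in HEL and leaned downward in MOLM-13. A gene was called when its Benjamini-Hochberg adjusted p from edgeR's quasi-likelihood test was under 0.05, with the adjustment over all 16499 genes tested. All 40 members passed the filter on low counts. In HEL 10 members rose, 4 fell and 26 were not called. Over all genes tested, 20.7% rose and 14.1% fell in HEL (34.8% called), so the 25% and 10% of members were near the background. In MOLM-13, 2 members rose, 12 fell and 26 were not called, while 18.1% of all genes tested rose and 14.3% fell (32.4% called). The members' shares there were 5% and 30%. Among the 10058 genes with a mean of at least 10 CPM over the 8 libraries, a group that holds 39 members, 24.7% rose and 18.7% fell in HEL, and 21.6% rose and 18.9% fell in MOLM-13. The median log2 fold change over the 40 members was 0.04 in HEL and -0.10 in MOLM-13, against 0.03 and 0.00 over all genes tested. The count of rises in HEL was 5 without HEL control replicate 1 or HEL DDX6 shRNA replicate 1, and 6 without HEL control replicate 2 or either MOLM-13 DDX6 shRNA library. The count of falls in HEL was 2 without either HEL control library or HEL DDX6 shRNA replicate 2. In MOLM-13, 1 member rose without either HEL control library or MOLM-13 DDX6 shRNA replicate 1, 4 rose without MOLM-13 control replicate 1, and 7 fell without MOLM-13 DDX6 shRNA replicate 1.

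Counted by whether the libraries of the groups overlap, 19 members were higher and 9 lower without overlap in HEL, against 37.5% and 29.9% of all genes tested. In MOLM-13, 3 were higher and 16 lower without overlap, against 31% and 29.2% of all genes tested.

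**Figure D1:**
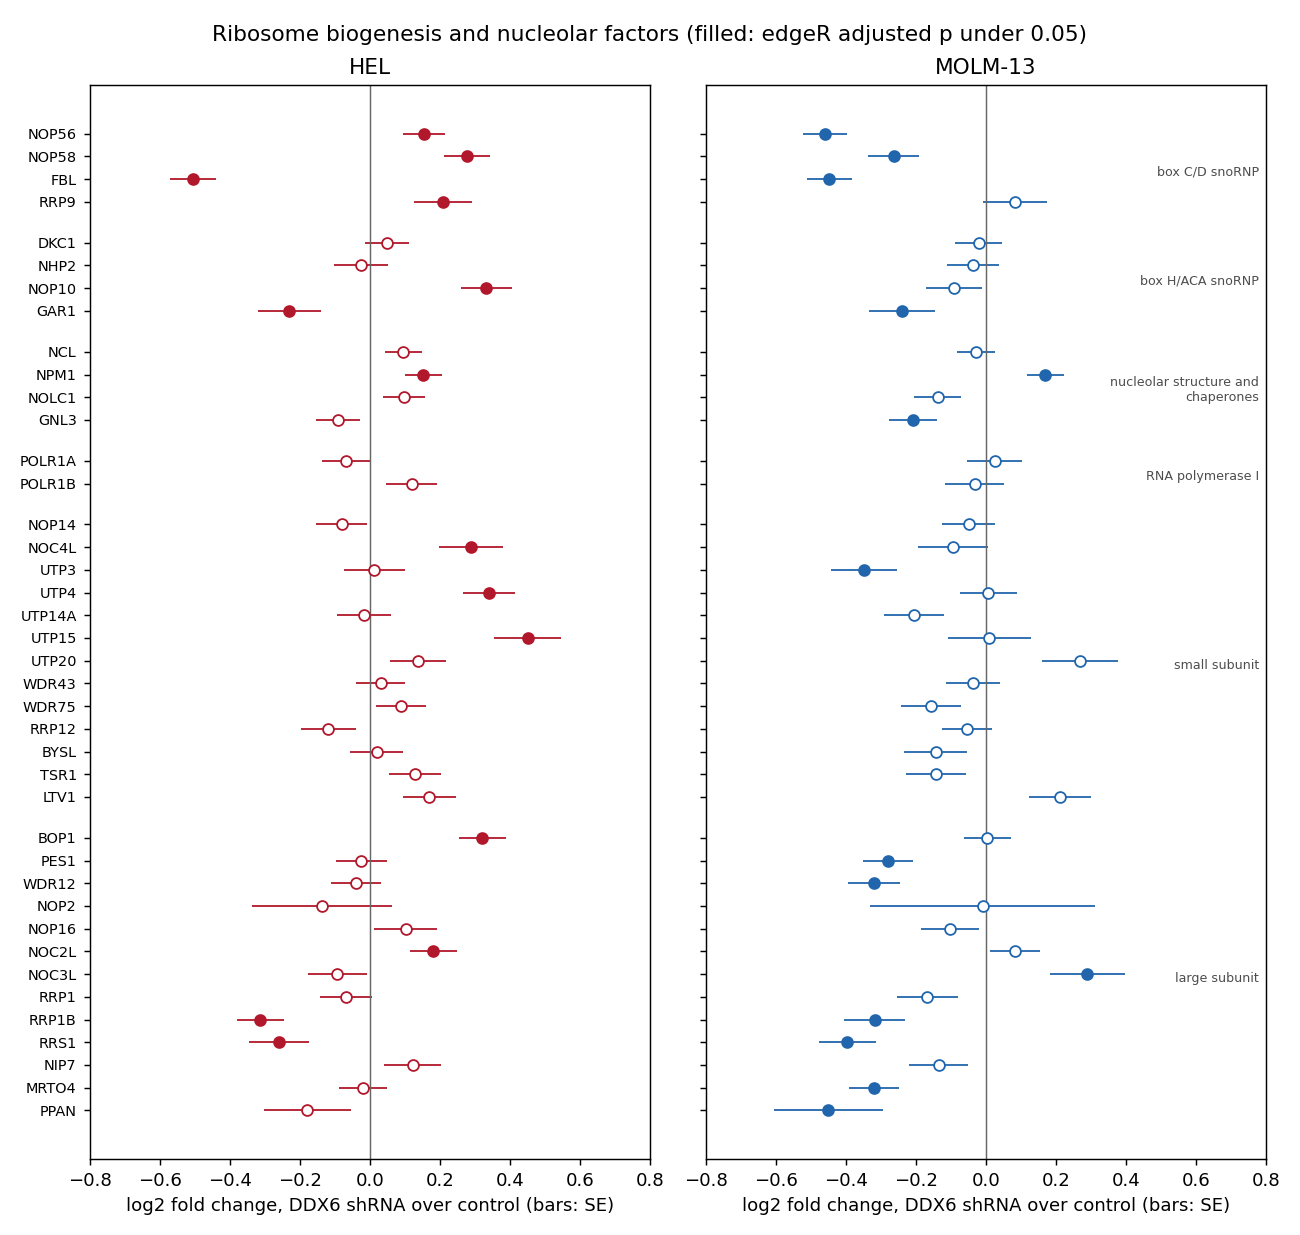
Log2 fold change of each of the 40 members, DDX6 shRNA over control, in HEL (left) and MOLM-13 (right), with the standard error as a bar; filled points have an edgeR adjusted p under 0.05 and open points do not. Members run down the page by role; 10 filled points lie above 0 and 4 below in HEL, and 2 above and 12 below in MOLM-13.

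Every called change of a member was small. The called rises in HEL ran up to a log2 fold change of 0.45 (UTP15, 136.7% of control) and the called falls down to -0.51 (FBL, 70.5% of control). In MOLM-13 they ran from -0.46 (NOP56, 72.7% of control) to 0.29 (NOC3L, 122% of control). Summed over the 40 members, the level was 9028 and 8705 CPM in HEL DDX6 shRNA libraries, against 8483 and 8368 CPM in HEL control libraries. In MOLM-13 it was 7760 and 7779 CPM in DDX6 shRNA libraries, against 8143 and 8105 CPM in control libraries. The sums did not overlap between groups in either line, and stood at 105% of control in HEL and 95.6% in MOLM-13. NCL and NPM1 weighed most in these sums, with means of 1965 and 1394 CPM against a summed 8425 CPM for HEL controls. For MOLM-13 controls the means were 1429 and 1737 CPM, against a summed 8124 CPM. The role with both genes, nucleolar structure and chaperones, reached 107% of control for HEL and 104% for MOLM-13. Relative to control, the other roles ranged between 101% and 106% for HEL libraries and between 76.5% and 100% for MOLM-13 libraries. With 2 libraries against 2, an exact two-sided permutation test cannot go below p = 0.33, so no test was run on sums.

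The box C/D snoRNP genes were the role with the lowest summed level relative to control in MOLM-13. The 4 genes together stood at 925 and 879 CPM in MOLM-13 DDX6 shRNA libraries, against 1151 and 1206 CPM in MOLM-13 control libraries, which is 76.5% of control. In HEL their sum was 999.5 and 987 CPM in DDX6 shRNA libraries, against 991 and 963 CPM in control libraries, and these overlapped. All 4 members were called in HEL, with 3 higher and 1 lower, and 3 were called in MOLM-13, all lower. Over all genes tested, 34.8% were called in HEL and 32.4% in MOLM-13. Among the HEL rises, those of NOP56 and RRP9 passed narrowly, and each was lost in 10 of 14 alternatives.

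FBL (ENSG00000105202, GRCh38 chromosome 19, 39834458 to 39846414, minus strand) encodes fibrillarin, the ribose methyltransferase of box C/D particles. It fell in both lines. FBL had 220.1 and 213 CPM in HEL DDX6 shRNA libraries, against 318 and 297 CPM in HEL control libraries. In MOLM-13 it had 359 and 324 CPM in DDX6 shRNA libraries, against 446 and 485 CPM in control libraries. No DDX6 shRNA library reached the level of a control library of its line. Its log2 fold change reached -0.51 ± 0.07 (SE) in HEL and -0.45 ± 0.07 in MOLM-13 (edgeR adjusted p of 3.30e-08 and 4.09e-07), and both calls were kept in each of 14 alternative analyses. The HEL response minus the MOLM-13 response was -0.06 on the log2 scale (edgeR adjusted p = 0.769).

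NOP56 (ENSG00000101361, chromosome 20, 2652145 to 2658393, plus strand) encodes 1 of the paired scaffold proteins that hold fibrillarin on the guide RNA. It fell in MOLM-13, with 347 and 335 CPM in DDX6 shRNA libraries, against 455 and 483 CPM in control libraries (log2 fold change -0.46 ± 0.06, edgeR adjusted p = 6.24e-08, kept in each of 14 alternatives). In HEL it had 368 and 363 CPM in DDX6 shRNA libraries, against 329 and 327 CPM in control libraries. That rise of 0.16 ± 0.06 passed narrowly (edgeR adjusted p = 0.0399). It was lost in 10 of 14 alternatives, among them leaving out HEL control replicate 1 (0.165), HEL control replicate 2 (0.226), HEL DDX6 shRNA replicate 1 (0.22), HEL DDX6 shRNA replicate 2 (0.123), MOLM-13 DDX6 shRNA replicate 1 (0.125) or MOLM-13 DDX6 shRNA replicate 2 (0.127).

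NOP58 (ENSG00000055044, chromosome 2, 202265716 to 202303666, plus strand) encodes the scaffold partner of NOP56. It rose in HEL, with 341 and 334 CPM in DDX6 shRNA libraries, against 279.8 and 277 CPM in control libraries (log2 fold change 0.28 ± 0.07, edgeR adjusted p = 0.000622, kept in each of 14 alternatives). In MOLM-13 it fell, with 141 and 149 CPM in DDX6 shRNA libraries, against 186 and 163 CPM in control libraries (-0.26 ± 0.07, edgeR adjusted p = 0.00386). The MOLM-13 call was lost without control replicate 1 (0.0691) and without DDX6 shRNA replicate 1 (0.101). NOP56 and NOP58 were the only members called in opposite directions in the lines, an outcome seen for 1.66% of all genes tested. The difference of response was called for both: 0.62 for NOP56 and 0.54 for NOP58 on the log2 scale, HEL minus MOLM-13 (edgeR adjusted p of 8.04e-07 and 6.94e-05). These were the 2 differences of a member kept in each of 13 alternatives.

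RRP9, the protein specific to the particle of the guide RNA for early precursor cleavage, had 70.4 and 77.1 CPM in HEL DDX6 shRNA libraries, against 64.4 and 63.0 CPM in HEL control libraries (log2 fold change 0.21 ± 0.08, edgeR adjusted p = 0.0436). That call was lost in 10 of 14 alternatives, with adjusted p of 0.142 without HEL control replicate 1, 0.24 without HEL control replicate 2, 0.0523 without HEL DDX6 shRNA replicate 1, 0.347 without HEL DDX6 shRNA replicate 2 and 0.117 without either MOLM-13 DDX6 shRNA library. In MOLM-13 the groups overlapped and it was not called (0.08 ± 0.09).

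Ratios of counts between members need no scaling between libraries, and the pairs given here were picked after the values had been seen. The count of NOP56 over that of FBL was 1.67 and 1.70 in HEL DDX6 shRNA libraries, against 1.04 and 1.1 in HEL control libraries. In MOLM-13 the same ratio was 0.967 and 1.03 in DDX6 shRNA libraries, against 1.02 and 0.995 in control libraries. NOP58 over FBL was 1.55 and 1.57 in HEL DDX6 shRNA libraries, against 0.88 and 0.932 in HEL control libraries. In MOLM-13 it was 0.394 and 0.461 in DDX6 shRNA libraries, against 0.418 and 0.335 in control libraries. The HEL libraries thus separated by group in both ratios, while those of MOLM-13 overlapped in both.

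**Figure D2:**
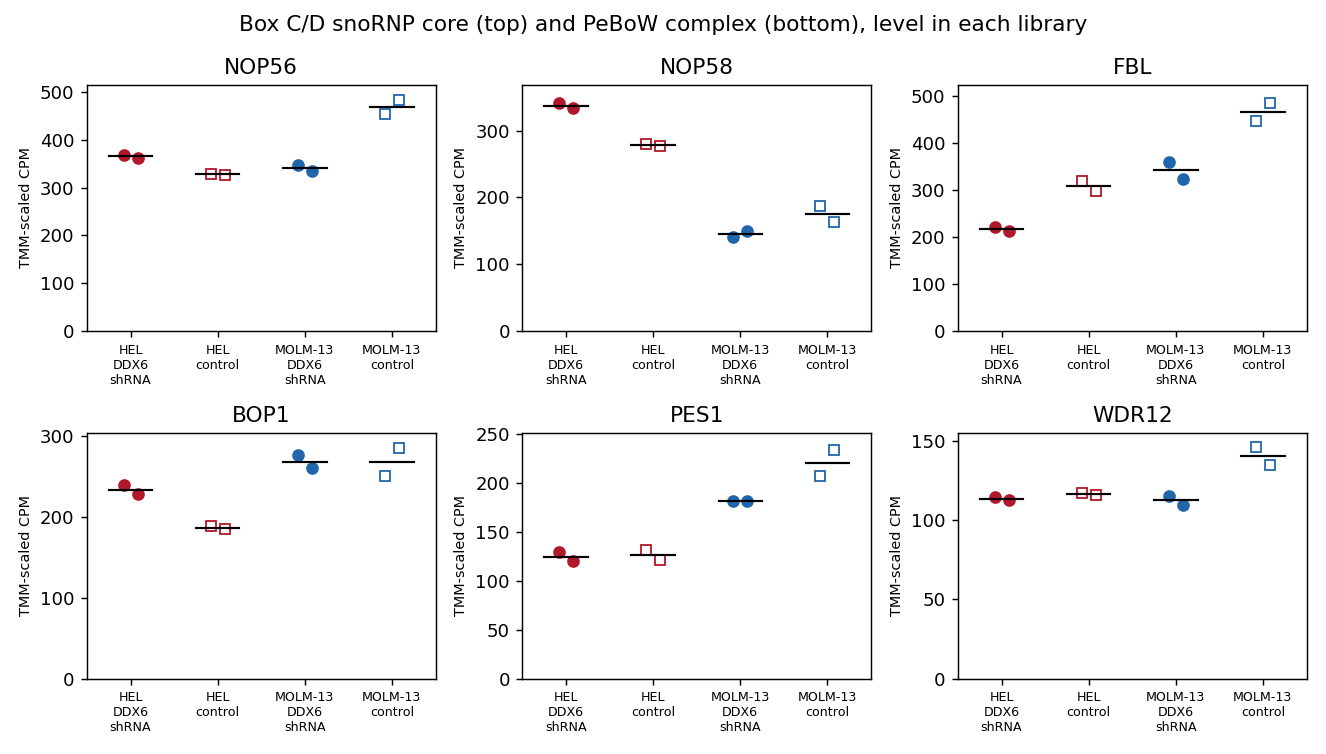
TMM-scaled CPM of 6 members in each library: NOP56, NOP58 and FBL of the box C/D core (top) and BOP1, PES1 and WDR12 of the PeBoW complex (bottom). Within each line the DDX6 shRNA libraries stand left of the controls, points are libraries and lines are means of 2; FBL is lower with DDX6 shRNA in both lines, while NOP58 is higher in HEL and lower in MOLM-13.

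Among the 4 box H/ACA genes, changes were split between members. NOP10, the smallest core protein of these particles, rose in HEL, with 137 and 130.4 CPM in DDX6 shRNA libraries, against 108 and 104 CPM in control libraries (log2 fold change 0.33 ± 0.07, edgeR adjusted p = 0.000287, kept in each of 14 alternatives). The MOLM-13 values were 105 and 101 CPM in DDX6 shRNA libraries, against 102 and 118 CPM in control libraries, which overlap (-0.09 ± 0.08, edgeR adjusted p = 0.421). The difference between the lines was 0.42 (edgeR adjusted p = 0.00435), and was lost without HEL control replicate 2 (0.0544) and without MOLM-13 DDX6 shRNA replicate 2 (0.0654).

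GAR1, the partner needed for catalysis, had 41.8 and 36.7 CPM in HEL DDX6 shRNA libraries, against 48.0 and 44.1 CPM in HEL control libraries. MOLM-13 libraries gave 49.1 and 48.3 CPM in DDX6 shRNA libraries, against 55.8 and 59.1 CPM in control libraries. The groups did not overlap in either line, and both falls passed narrowly (log2 fold change -0.23 ± 0.09 in HEL and -0.24 ± 0.10 in MOLM-13, edgeR adjusted p of 0.0418 and 0.0481). The HEL call was lost without HEL control replicate 1 (0.348), HEL control replicate 2 (0.0629) or HEL DDX6 shRNA replicate 2 (0.42). The MOLM-13 call was lost in 12 of 14 alternatives, with adjusted p up to 0.209 without MOLM-13 DDX6 shRNA replicate 2. It was 0.175 without MOLM-13 DDX6 shRNA replicate 1, 0.189 without MOLM-13 control replicate 2, 0.0699 and 0.07 without HEL control replicate 1 or 2, and 0.0598 and 0.0595 without HEL DDX6 shRNA replicate 1 or 2.

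DKC1, which encodes dyskerin, the pseudouridine synthase of the particle and of telomerase, was not called in either line. Its log2 fold change was 0.05 ± 0.06 in HEL and -0.02 ± 0.07 in MOLM-13. NHP2, another core protein, likewise had -0.03 ± 0.08 and -0.04 ± 0.07, though 27.4% of its exon bases overlap RMND5B on the opposite strand, and without a known strand setting those reads cannot be assigned.

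Nucleophosmin and nucleolin, abundant proteins of the nucleolus, had transcripts that changed little or were not called. NPM1 (ENSG00000181163, chromosome 5, 171387116 to 171411137, plus strand), a nucleolar chaperone that is often mutated in acute myeloid leukaemia, was the only member called higher in both lines. It had 1579 and 1521 CPM in HEL DDX6 shRNA libraries, against 1408 and 1379 CPM in HEL control libraries. In MOLM-13 it had 1954 and 1956 CPM in DDX6 shRNA libraries, against 1758 and 1717 CPM in control libraries. The libraries did not overlap in either line. The log2 fold change was 0.15 ± 0.05 in HEL and 0.17 ± 0.05 in MOLM-13 (edgeR adjusted p of 0.0202 and 0.0104). Over all genes tested, 8.15% were called higher in both lines. The HEL call was lost without HEL control replicate 1 (0.0845), HEL control replicate 2 (0.192), HEL DDX6 shRNA replicate 1 (0.201) or MOLM-13 DDX6 shRNA replicate 1 or 2 (0.0679 and 0.0685), and the MOLM-13 call was lost when that line was fitted alone (0.0729).

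NCL, which encodes nucleolin, an RNA-binding protein of the nucleolus, had 2158 and 2041 CPM in HEL DDX6 shRNA libraries, against 1989 and 1940 CPM in HEL control libraries. The MOLM-13 values were 1386 and 1418 CPM in DDX6 shRNA libraries, against 1461 and 1397 CPM in control libraries. It was not called in either line (0.10 ± 0.05 and -0.03 ± 0.05). NOLC1, a chaperone of snoRNPs, was not called either (0.10 ± 0.06 in HEL and -0.14 ± 0.07 in MOLM-13), though it passed in MOLM-13, as lower, without MOLM-13 control replicate 2 (0.0142). GNL3, the nucleolar GTPase nucleostemin, fell in MOLM-13, with 172 and 175 CPM in DDX6 shRNA libraries, against 203 and 198.5 CPM in control libraries (-0.21 ± 0.07, edgeR adjusted p = 0.0144). That call was lost without MOLM-13 DDX6 shRNA replicate 1 (0.125) or 2 (0.0681). In HEL GNL3 was not called (-0.09 ± 0.06). It passed, as lower, without MOLM-13 control replicate 1 or 2 (0.0156 and 0.0154).

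Neither core subunit gene of RNA polymerase I was called. POLR1A had log2 fold changes of -0.07 ± 0.07 in HEL and 0.03 ± 0.08 in MOLM-13, and POLR1B had 0.12 ± 0.07 and -0.03 ± 0.08. Of 13 other genes of the polymerase and its initiation factors, 1 rose and 2 fell in HEL (7.69% and 15.4%). In MOLM-13, 0 rose and 6 fell (0% and 46.2%). The shares over all genes tested were 20.7% and 14.1% in HEL, and 18.1% and 14.3% in MOLM-13. POLR1D, a subunit shared with RNA polymerase III, fell in both lines (-0.40 ± 0.07 in HEL and -0.37 ± 0.07 in MOLM-13, edgeR adjusted p of 3.63e-06 and 2.19e-05). RRN3, the initiation factor that recruits the polymerase, rose in HEL (0.33 ± 0.07, edgeR adjusted p = 0.00025).

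Of the 13 small subunit members, 3 rose and 0 fell in HEL (23.1% and 0%), and 0 rose and 1 fell in MOLM-13 (0% and 7.69%). Over all genes tested, 20.7% rose and 14.1% fell in HEL, and 18.1% rose and 14.3% fell in MOLM-13. The share of rises in HEL was thus near the background. The HEL rises included a pair from the UTP-A complex, which binds the nascent precursor first. UTP15 had 39.6 and 37.8 CPM in HEL DDX6 shRNA libraries, against 28.6 and 28.0 CPM in HEL control libraries (log2 fold change 0.45 ± 0.10, edgeR adjusted p = 0.000177). UTP4 had 104 and 110.5 CPM in HEL DDX6 shRNA libraries, against 84.0 and 85.65 CPM in HEL control libraries (0.34 ± 0.08, edgeR adjusted p = 0.000303). Both calls were kept in each of 14 alternatives. In MOLM-13 both genes had overlapping libraries and log2 fold changes of 0.01. Their partners in the complex, WDR43 and WDR75, were not called in HEL (0.03 ± 0.07 and 0.09 ± 0.07) or in MOLM-13 (-0.04 ± 0.08 and -0.16 ± 0.09). WDR75 passed in MOLM-13, as lower, without MOLM-13 control replicate 2 (0.00957).

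The third HEL rise was NOC4L, a small subunit processome factor, with 44.3 and 42.2 CPM in DDX6 shRNA libraries, against 34.3 and 36.5 CPM in control libraries (0.29 ± 0.09, edgeR adjusted p = 0.0122). It was lost without HEL control replicate 1 (0.146) or HEL DDX6 shRNA replicate 1 (0.129). The MOLM-13 fall was UTP3, another processome factor, with 53.5 and 53.85 CPM in DDX6 shRNA libraries, against 75.7 and 61.1 CPM in control libraries (-0.35 ± 0.09, edgeR adjusted p = 0.00324). It was lost without MOLM-13 control replicate 1 (0.168) or MOLM-13 DDX6 shRNA replicate 1 (0.0501), and the control libraries of UTP3 lay further apart than the groups' nearest libraries.

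The remaining 7 small subunit members (NOP14, UTP14A, UTP20, RRP12, BYSL, TSR1 and LTV1) were not called in either line, with log2 fold changes between -0.12 and 0.17 in HEL and between -0.21 and 0.27 in MOLM-13. The calls of 4 depended on single libraries. UTP20 (0.27 ± 0.11, edgeR adjusted p = 0.0509) and LTV1 (0.21 ± 0.09, edgeR adjusted p = 0.0586) lay just outside the threshold in MOLM-13. Both passed, as higher, without MOLM-13 control replicate 1 (0.00273 and 0.000434), and UTP20 also without MOLM-13 DDX6 shRNA replicate 2 (0.0209). TSR1 passed in MOLM-13, as lower, without MOLM-13 control replicate 2 (0.0369). In HEL, RRP12 (as lower) and LTV1 (as higher) passed without MOLM-13 control replicate 1 (0.0449 and 0.0453) or 2 (0.0442 and 0.045). TSR1 shares 20.7% of its exon bases with SRR, and NOP14 17.1% with its antisense gene, both on the opposite strand. LTV1 shares 27.7% with AL049844.3 and 7.15% with AL049844.1, both on the same strand, so its level is uncertain.

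Large subunit members made up 6 of the 12 falls in MOLM-13. Of 13, 2 rose and 2 fell in HEL (15.4% each), against 20.7% and 14.1% of all genes tested. In MOLM-13, 1 rose and 6 fell (7.69% and 46.2%), against 18.1% and 14.3% of all genes tested. Summed, they stood at 1401 and 1377 CPM in HEL DDX6 shRNA libraries, against 1375 and 1370 CPM in HEL control libraries, and at 1349 and 1324 CPM in MOLM-13 DDX6 shRNA libraries, against 1439 and 1533 CPM in MOLM-13 control libraries.

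BOP1, PES1 and WDR12 encode the PeBoW complex, which is needed for processing of the large subunit RNA. BOP1 rose in HEL, with 239 and 229 CPM in DDX6 shRNA libraries, against 189 and 185 CPM in control libraries (log2 fold change 0.32 ± 0.07, edgeR adjusted p = 0.000159, kept in each of 14 alternatives). MOLM-13 libraries gave 277 and 261 CPM in DDX6 shRNA libraries, against 251 and 285 CPM in control libraries, and BOP1 was not called there (0.00 ± 0.07). PES1 fell in MOLM-13, with 182 and 182 CPM in DDX6 shRNA libraries, against 207 and 234 CPM in control libraries (-0.28 ± 0.07, edgeR adjusted p = 0.00214). WDR12 fell there too, with 115.5 and 109.8 CPM in DDX6 shRNA libraries, against 146 and 135 CPM in control libraries (-0.32 ± 0.08, edgeR adjusted p = 0.000677). Both MOLM-13 calls were kept in each of 14 alternatives. In HEL neither was called (-0.02 ± 0.07 for PES1 and -0.04 ± 0.07 for WDR12).

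So in HEL the BOP1 transcript was higher with its partners not called, and in MOLM-13 the partners were lower with BOP1 not called. The count of BOP1 over that of PES1 was 1.85 and 1.91 in HEL DDX6 shRNA libraries, against 1.44 and 1.52 in HEL control libraries. In MOLM-13 it was 1.52 and 1.44 in DDX6 shRNA libraries, against 1.21 and 1.22 in control libraries. BOP1 over WDR12 was 2.09 and 2.03 in HEL DDX6 shRNA libraries, against 1.61 and 1.6 in HEL control libraries, and 2.40 and 2.38 in MOLM-13 DDX6 shRNA libraries, against 1.72 and 2.11 in MOLM-13 control libraries. Both ratios were higher with DDX6 shRNA in both lines, with no overlap between the libraries of a line. The same held for NOP10 over GAR1, DKC1 over GAR1 and NPM1 over NCL, so it was not particular to the PeBoW complex. RRP1B over RRP1 and NOP56 over NOP58 were lower without overlap in HEL and overlapped in MOLM-13. How often the ratios of other gene pairs separate in this way was not counted. The ratio of WDR12 over PES1, in contrast, overlapped between groups in both lines.

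**Figure D3:**
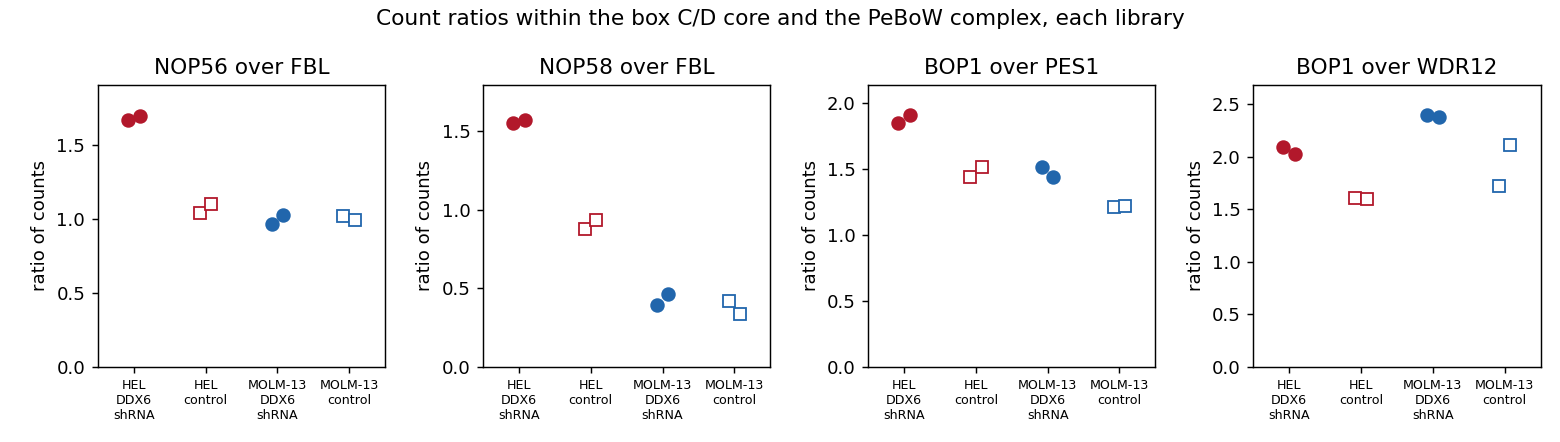
Ratio of raw counts between 2 members of a complex in each library, with the DDX6 shRNA libraries of each line left of its controls. NOP56 over FBL and NOP58 over FBL separate by group in HEL and overlap in MOLM-13; BOP1 over PES1 and BOP1 over WDR12 are higher with DDX6 shRNA in both lines.

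RRP1B and RRS1 fell in both lines. RRP1B (ENSG00000160208, chromosome 21, 43659548 to 43696079, plus strand), a nucleolar protein of large subunit precursors, had 149 and 154 CPM in HEL DDX6 shRNA libraries, against 186 and 190.5 CPM in HEL control libraries. In MOLM-13 it had 53.8 and 62.0 CPM in DDX6 shRNA libraries, against 71.6 and 72.6 CPM in control libraries. The log2 fold change was -0.31 ± 0.07 in HEL and -0.32 ± 0.09 in MOLM-13 (edgeR adjusted p of 0.000299 and 0.00382). The HEL call was kept in each of 14 alternatives, and the MOLM-13 call was lost without MOLM-13 DDX6 shRNA replicate 1 (0.186). Its paralogue RRP1 was not called in either line (-0.07 ± 0.07 and -0.17 ± 0.09), and passed in MOLM-13, as lower, without MOLM-13 control replicate 1 (0.0069).

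RRS1 (ENSG00000179041, chromosome 8), known from yeast as a factor that brings the 5S particle into the large subunit, had 40.4 and 37.5 CPM in HEL DDX6 shRNA libraries, against 47.8 and 45.5 CPM in HEL control libraries. The MOLM-13 values were 73.9 and 76.45 CPM in DDX6 shRNA libraries, against 101 and 97.2 CPM in control libraries. It fell by 0.26 ± 0.09 on the log2 scale in HEL and by 0.40 ± 0.08 in MOLM-13 (edgeR adjusted p of 0.017 and 0.000135). The MOLM-13 call was kept in each of 14 alternatives. The HEL call was lost without HEL control replicate 1 (0.169), HEL control replicate 2 (0.0526) or HEL DDX6 shRNA replicate 2 (0.201). RRS1 shares 11.4% of its exon bases with AC009879.2 on the same strand. FBL, GAR1, RRP1B and RRS1 were the 4 members called lower in both lines, an outcome seen for 5.43% of all genes tested.

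MRTO4, a factor related to a ribosomal stalk protein, fell in MOLM-13, with 140.1 and 146 CPM in DDX6 shRNA libraries, against 172.5 and 184 CPM in control libraries (-0.32 ± 0.07, edgeR adjusted p = 0.000391, kept in each of 14 alternatives). In HEL it had 148 and 146 CPM in DDX6 shRNA libraries, against 151.5 and 147 CPM in control libraries, and was not called. NOC3L, a nuclear transport and assembly factor, was the member called higher in MOLM-13 besides NPM1, with 44.85 and 44.4 CPM in DDX6 shRNA libraries, against 41.2 and 31.9 CPM in control libraries (0.29 ± 0.11, edgeR adjusted p = 0.0335). That call was lost without MOLM-13 control replicate 2 (0.445), MOLM-13 DDX6 shRNA replicate 1 (0.115), MOLM-13 DDX6 shRNA replicate 2 (0.114) or HEL control replicate 1 or 2 (0.0509 and 0.0519). NOC2L, its partner in large subunit assembly, had 234 and 234 CPM in HEL DDX6 shRNA libraries, against 201 and 212 CPM in HEL control libraries (0.18 ± 0.07, edgeR adjusted p = 0.0302). That call was lost in 10 of 14 alternatives, with 0.281 without HEL control replicate 1, 0.0844 without HEL control replicate 2, 0.144 without HEL DDX6 shRNA replicate 1 and 0.128 without HEL DDX6 shRNA replicate 2. Leaving out MOLM-13 DDX6 shRNA replicate 1 or 2 gave 0.102 and 0.103. In MOLM-13 NOC2L passed, as higher, only without MOLM-13 control replicate 2 (0.0214).

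PPAN and NOP2 have uncertain levels. PPAN, a large subunit assembly factor, shares 56% of its exon bases with the read-through gene PPAN-P2RY11, which had at most 1 count in a library. PPAN had 16.05 and 11.4 CPM in MOLM-13 DDX6 shRNA libraries, against 17.1 and 20.4 CPM in MOLM-13 control libraries (log2 fold change -0.45 ± 0.16, edgeR adjusted p = 0.022), a call lost without MOLM-13 control replicate 2 (0.223) or MOLM-13 DDX6 shRNA replicate 2 (0.447). NOP2, an rRNA cytosine methyltransferase, shares 54.4% of its exon bases with a longer read-through gene on the same strand that had 0 counts in every library. NOP2 had 4.91 and 6.06 CPM in HEL DDX6 shRNA libraries, against 6.26 and 5.77 CPM in HEL control libraries, the lowest of all members. How reads on shared bases were counted is not given in the sources used here. NOP16 and NIP7, the last of the large subunit members, were not called in either line. Their log2 fold changes were 0.10 and 0.12 in HEL and -0.10 and -0.14 in MOLM-13. NIP7 shares 20.2% of its exon bases with COG8 on the opposite strand.

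The responses of the lines were then compared directly. The difference, HEL response minus MOLM-13 response, was called for 10 members, 9 of them positive and 1 negative, against 7.59% and 7.53% of all genes tested (15.1% called) and 10.8% and 10.2% of the genes of at least 10 CPM. Besides NOP56, NOP58 and NOP10, the positive differences were those of UTP15 (0.44 ± 0.15, edgeR adjusted p = 0.0394), NOC4L (0.38, 0.0493), UTP3 (0.36, 0.0486), UTP4 (0.33, 0.0321), BOP1 (0.32, 0.0174) and MRTO4 (0.30, 0.0304). NOC3L had the negative one (-0.38, edgeR adjusted p = 0.0495), which was lost without HEL control replicate 1 or 2 (0.103 and 0.172), HEL DDX6 shRNA replicate 1 (0.206), MOLM-13 control replicate 2 (0.201) or MOLM-13 DDX6 shRNA replicate 1 or 2 (0.0908 and 0.0911). Most positive calls also rested on single libraries: the count of positive calls was 2 without HEL control replicate 2 and 2 without MOLM-13 DDX6 shRNA replicate 2. It was 3 without HEL control replicate 1, HEL DDX6 shRNA replicate 1 or MOLM-13 DDX6 shRNA replicate 1, and 4 without HEL DDX6 shRNA replicate 2. In sign, 31 of 40 differences were positive, with a median of 0.15, against 8733 of 16499 genes tested, with a median of 0.03. Across the 40 members, the log2 fold changes of the lines had a Pearson correlation of 0.449 and a Spearman correlation of 0.446. Over all 16499 genes tested the values were 0.224 and 0.335. The points of a line share its 4 libraries, so this is a description only.

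**Figure D4:**
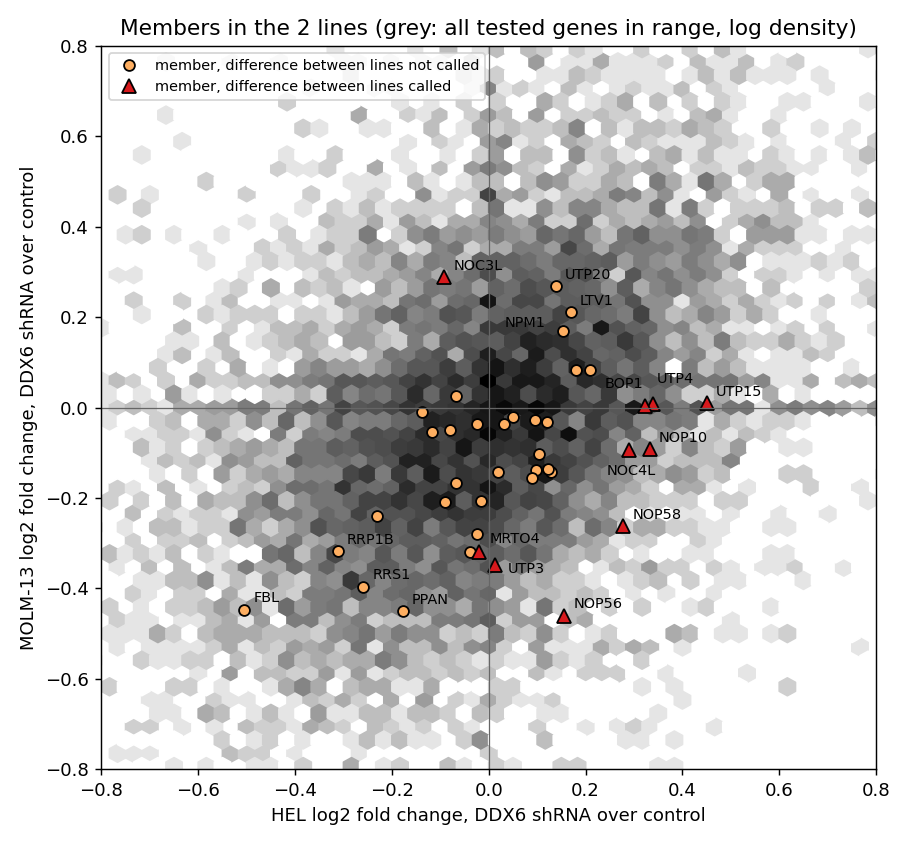
Log2 fold change of each member, DDX6 shRNA over control, in HEL (x axis) against MOLM-13 (y axis), over the density of all genes tested within the range shown (grey, log scale). Triangles mark the 10 members whose difference between lines was called; 9 of them lie below the diagonal of equal response, with NOP56 and NOP58 in the quadrant of a rise in HEL and a fall in MOLM-13.

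The lines also differed in the members' levels before any change in DDX6. Between the control libraries, 18 members were higher in HEL, 16 were higher in MOLM-13 and 6 were not called, where 40.8% of all genes tested were higher in HEL and 40.4% higher in MOLM-13 (81.2% called). Among genes of at least 10 CPM these shares were 44.6% and 40.8%. The members' own shares, 45% and 40%, were near these backgrounds, so such differences were not particular to the members. The largest log2 differences, HEL minus MOLM-13, were 1.38 for RRP1B and 1.13 for UTP20 on the HEL side and -1.29 for RRP12, -1.28 for NOP16, -1.09 for NHP2 and -1.08 for RRS1 on the MOLM-13 side. With upper-quartile scaling the median of all genes in this comparison moved to -0.12, which is small beside those values. Box C/D scaffolds split here as well: NOP58 was higher in HEL (0.67 ± 0.07), and NOP56 was higher in MOLM-13 (-0.52 ± 0.06). Per kilobase of exon, control levels in HEL ran from NPM1 (364 CPM per kilobase) and NCL (283.5) through NOP10 (191.5) and FBL (141.5) down to UTP15 (4.48) and NOP2 (1.28). In MOLM-13 controls NPM1 (454 CPM per kilobase) was followed by FBL (214), NCL (206) and NOP10 (198), and the last 3 lay close together. Exon lengths take in every annotated transcript, so levels per kilobase of genes with long minor transcripts are understated.

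Several members are themselves hosts of guide RNAs. In all, 8 members hold 27 snoRNA genes within their bounds, among them NOP56 with 5, NOP58 with 4, NCL with 3 and GNL3 with 6. Of these 8 hosts, 2 rose and 0 fell in HEL, and 0 rose and 4 fell in MOLM-13, against 20.7% and 14.1% of all genes tested in HEL and 18.1% and 14.3% in MOLM-13. The 4 include PPAN, whose level is uncertain. Of the other 32 members, 8 rose and 4 fell in HEL, and 2 rose and 8 fell in MOLM-13. The snoRNA genes themselves had at most 17 counts in a library for the 23 found by symbol, so nothing is reported on them. Members with an E-box in the promoter window (16) had 3 rises and 2 falls in HEL (18.8% and 12.5%), near those shares of all genes, and 1 rise and 5 falls in MOLM-13 (6.25% and 31.2%). Those with a window but no E-box (18) had 5 rises and 0 falls in HEL (27.8% and 0%) and 1 rise and 4 falls in MOLM-13 (5.56% and 22.2%).

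MYC, the regulator linked to that motif, had 417.5 and 411 CPM in HEL DDX6 shRNA libraries, against 423 and 442 CPM in HEL control libraries, and was not called (log2 fold change -0.06 ± 0.06). It passed, as lower, when HEL was fitted alone (edgeR adjusted p = 0.0398). MOLM-13 libraries gave 349 and 364 CPM in DDX6 shRNA libraries, against 419 and 414.5 CPM in control libraries. That fall of 0.23 ± 0.06 on the log2 scale passed (edgeR adjusted p = 0.00347), and was lost without MOLM-13 DDX6 shRNA replicate 1 (0.0924). Among 11 genes for MYC, its relatives and partners, 2 rose and 3 fell in HEL (18.2% and 27.3%). In MOLM-13, 2 rose and 4 fell (18.2% and 36.4%). The shares over all genes tested were 20.7% and 14.1% in HEL, and 18.1% and 14.3% in MOLM-13. MYCN, a MYC relative, rose in HEL, with 11.7 and 10.2 CPM in DDX6 shRNA libraries, against 5.71 and 5.27 CPM in control libraries (0.998 ± 0.17, edgeR adjusted p = 1.02e-05). MYCL, another relative, fell in MOLM-13, with 5.26 and 5.98 CPM in DDX6 shRNA libraries, against 12.9 and 13.5 CPM in control libraries (-1.23 ± 0.19, edgeR adjusted p = 1.20e-06). Among the repressors of this network, MXD3 fell in MOLM-13 (-0.71 ± 0.14, edgeR adjusted p = 4.89e-05). It also fell in HEL (-0.39, edgeR adjusted p = 0.0213), a call lost in 5 of 14 alternatives. The difference between the lines was not called for MXD3 (edgeR adjusted p = 0.309). MXD4 rose in MOLM-13 (0.42 ± 0.10, edgeR adjusted p = 0.00068). MXI1, a repressor that competes with MYC for MAX, fell in HEL (-0.57 ± 0.13, edgeR adjusted p = 0.000534) and passed as higher in MOLM-13 (0.22 ± 0.08, edgeR adjusted p = 0.0394). Its difference, HEL minus MOLM-13, was -0.79 on the log2 scale (edgeR adjusted p = 0.000241, kept in each of 13 alternatives). The MOLM-13 call of MXI1 was lost in 10 of 14 alternatives, with 0.0661 and 0.0658 without HEL control replicate 1 or 2, 0.0569 and 0.0566 without HEL DDX6 shRNA replicate 1 or 2, 0.156 without MOLM-13 control replicate 2 and 0.252 without MOLM-13 DDX6 shRNA replicate 2. MNT fell in HEL (-0.43 ± 0.12, edgeR adjusted p = 0.00452), a call lost without HEL control replicate 2 (0.184) or HEL DDX6 shRNA replicate 1 (0.0538).

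Other genes of the pathway were counted in the same way. Of 103 further ribosome biogenesis genes in 4 lists, 20 rose and 13 fell in HEL (19.4% and 12.6%), with a median log2 fold change of 0.04. In MOLM-13, 4 rose and 32 fell (3.88% and 31.1%), with a median of -0.13. Over all genes tested, 20.7% rose and 14.1% fell in HEL, and 18.1% rose and 14.3% fell in MOLM-13. Of 38 other small subunit genes 11 rose and 5 fell in HEL (28.9% and 13.2%), and 3 rose and 10 fell in MOLM-13 (7.89% and 26.3%). RRP36 (0.60 ± 0.08) and PNO1 (0.52 ± 0.08) rose in HEL, and IMP4, of the U3 particle, fell in both lines (-0.34 ± 0.07 and -0.34 ± 0.08), with edgeR adjusted p of at most 0.000592. Of 36 other large subunit genes 8 rose and 3 fell in HEL (22.2% and 8.33%), and 0 rose and 7 fell in MOLM-13 (0% and 19.4%). SBDS, the subunit-joining factor mutated in Shwachman-Diamond syndrome, rose in HEL (0.47 ± 0.09, edgeR adjusted p = 3.13e-05). RSL24D1 (-0.59 ± 0.06) and NOP53 (-0.51 ± 0.06) fell there, and PELP1 (-0.57 ± 0.09) and BRIX1 (-0.44 ± 0.09) fell in MOLM-13 (edgeR adjusted p of at most 9.82e-05). RSL24D1 fell in MOLM-13 too (-0.30 ± 0.07, edgeR adjusted p = 0.000249). PELP1 and BRIX1 were not called in HEL (-0.17 ± 0.08 and -0.16 ± 0.07), but passed there, as lower, without any single MOLM-13 library (edgeR adjusted p up to 0.0381 and 0.0356).

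The RNA exosome is the exonuclease complex that trims precursor rRNA. The list of its genes, which also holds MTREX, C1D, MPHOSPH6, XRN2 and NOL12, had the largest share of falls among these lists in MOLM-13. Of 16, 0 rose and 3 fell in HEL (0% and 18.8%), and 1 rose and 9 fell in MOLM-13 (6.25% and 56.2%). Falls made up 14.1% of all genes tested in HEL and 14.3% in MOLM-13. Among genes of at least 10 CPM they made up 18.7% and 18.9%, so the HEL share was near the background. EXOSC8 fell by 0.40 ± 0.07 on the log2 scale in HEL and by 0.75 ± 0.07 in MOLM-13 (edgeR adjusted p of 7.76e-06 and 2.98e-11), and EXOSC6 fell by 0.44 ± 0.11 in HEL and by 0.72 ± 0.10 in MOLM-13 (edgeR adjusted p of 0.00151 and 1.50e-07). The difference between the lines was not called for EXOSC6 (edgeR adjusted p = 0.228). For EXOSC8 it was called (0.35, HEL minus MOLM-13, edgeR adjusted p = 0.0115), and was lost in 4 of 13 alternatives. XRN2, a nuclear exonuclease acting on rRNA precursors, was the gene that rose in MOLM-13 (0.44 ± 0.08, edgeR adjusted p = 7.47e-06). In HEL XRN2 was not called (0.16, edgeR adjusted p = 0.0697), but passed, as higher, when HEL was fitted alone (0.0198). Its difference between the lines was not called (edgeR adjusted p = 0.052).

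Of the other calls with the smallest adjusted p in these lists, 6 rested on single libraries and 3 did not. TAF1D, a factor of polymerase I initiation, fell in HEL (-0.24 ± 0.07, edgeR adjusted p = 0.00363), a call lost without HEL control replicate 1 (0.0754) or HEL DDX6 shRNA replicate 1 (0.113). Its partner TAF1C fell in MOLM-13 (-0.40 ± 0.09, edgeR adjusted p = 0.000438), and that was lost without MOLM-13 DDX6 shRNA replicate 2 (0.0662). NOB1, the nuclease of the last small subunit cleavage, fell in HEL (-0.33 ± 0.08, edgeR adjusted p = 0.00142), which was lost without HEL control replicate 1 (0.0669). DIMT1, an rRNA dimethyltransferase, rose in MOLM-13 (0.59 ± 0.14, edgeR adjusted p = 0.000643) and lost the call without MOLM-13 DDX6 shRNA replicate 2 (0.106). RCL1, a processome factor, rose there too (0.33 ± 0.10, edgeR adjusted p = 0.00914) and lost the call without MOLM-13 DDX6 shRNA replicate 1 (0.089). MLX, a partner in the MYC network, rose in HEL (0.20 ± 0.08, edgeR adjusted p = 0.0393). It was lost in 9 of 14 alternatives, with 0.22 and 0.147 without HEL control replicate 1 or 2, and 0.459 without HEL DDX6 shRNA replicate 1. Leaving out MOLM-13 DDX6 shRNA replicate 1 or 2 gave 0.109 and 0.11. The calls of NOL10 in MOLM-13 (-0.48 ± 0.10), RPF2 in HEL (0.36 ± 0.07) and EXOSC5 in HEL (-0.46 ± 0.10) were kept in each of 14 alternatives (edgeR adjusted p of at most 0.00024). RCL1 also rose in HEL (0.275, edgeR adjusted p = 0.000466), a call kept in each of 14 alternatives. DIMT1 rose in HEL too (0.312, edgeR adjusted p = 0.0172), and NOL10 fell there (-0.271, edgeR adjusted p = 0.00756). Each of these 2 HEL calls was lost in 4 of 14 alternatives.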

How the data were processed

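Tables of whole-number counts per gene, 1 for each line, were used as the authors deposited them, not normalized and with no replicates pooled. The submitters' processing notes name GRCh38 and the tools DESeq2, SAMtools 1.12 and STAR. The counter, annotation release and strand setting are not given in these sources. Columns were matched to samples by line, shRNA and replicate number, and 0 were left unused. All 8 libraries entered 1 edgeR 4.0.16 model with a mean for each of 4 groups (filterByExpr with a minimum count of 10, TMM, glmQLFit, glmQLFTest), which leaves 4 residual degrees of freedom. Each gene's spread was pooled over the 4 groups and drawn toward a value shared among genes (median prior degrees of freedom 40). Adjusted p-values are Benjamini-Hochberg over 16499 genes, and the SE is the absolute log2 fold change over the square root of F. The script was tested on simulated data. Coordinates, exon lengths and overlaps come from GENCODE release 29 and promoters from RefSeq GRCh38.p14. Replicates differed by more than sampling noise in every group. Chi-square per degree of freedom was 1.41 in HEL control, 1.54 in HEL DDX6 shRNA, 1.69 in MOLM-13 DDX6 shRNA and 3.37 in MOLM-13 control libraries. The pooled spread may thus understate that of MOLM-13 control libraries, which enter every MOLM-13 change and every difference between the lines. Members and lists were chosen with earlier results of these data known. Values per library are given for the called members with the largest changes in each line, those called in both lines or for the difference, NCL, NPM1 and FBL, and for MYC and DDX6. From each other list, log2 fold changes are given for up to 2 called genes per line and direction with the smallest adjusted p. EXOSC6, RCL1, DIMT1, NOL10 and MXD3 in HEL and RSL24D1 in MOLM-13 were added after they were seen. The values per library of MYCN and MYCL were also added then. The threshold of 10 CPM and the count ratios were added after the data were seen.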

Additional observations from a re-analysis of the deposited data

Results flagged for a closer look

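The response to DDX6 shRNA differed between HEL and MOLM-13, by the interaction term of the edgeR model, for 10 members. On the log2 scale, HEL response minus MOLM-13 response, the values were 0.62 for NOP56, 0.54 for NOP58, 0.44 for UTP15, 0.42 for NOP10, 0.38 for NOC4L, 0.36 for UTP3, 0.33 for UTP4, 0.32 for BOP1, 0.30 for MRTO4 and -0.38 for NOC3L. Those of NOP56 and NOP58 were called in each of 13 alternatives, and the other 8 were not. The calls of NOC4L, UTP3 and UTP15 were lost in 12 of 13, and that of UTP4 in 11. The call of MRTO4 was lost in 10, NOC3L in 9, BOP1 in 6 and NOP10 in 2.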

How the results depend on the processing

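No member changed direction in a called comparison under any alternative. Of 14 members called in HEL, 7 were called in each of 14 alternatives (NOP58, NOP10, UTP4, UTP15 and BOP1 higher, FBL and RRP1B lower), and of 14 in MOLM-13, 6 were (NOP56, FBL, PES1, WDR12, RRS1 and MRTO4, all lower). With DESeq2, 6 members rose and 2 fell in HEL, 1 rose in MOLM-13, and the difference was positive for 4 and negative for 0. Over all genes DESeq2 called 2178 higher and 1383 lower in HEL, 1405 lower in MOLM-13, and 691 higher and 803 lower for the difference. Upper-quartile scaling left 6 member rises in HEL and 5 positive differences. RLE scaling gave 4 member rises in MOLM-13, no filter gave 1, and fitting each line alone gave 0. Without the filter, 4 differences were positive and 0 negative. The replicate numbers share only a label: the replicate 1 minus 2 deviations of DDX6 shRNA and control libraries correlated at 0.0504 in HEL and -0.0399 in MOLM-13. With the replicate block, 4 member differences were positive and 0 negative, and every other count was within 1.5 times. The summed level of the members in MOLM-13 was 96.4% of control with RLE, 95.2% with upper-quartile and 92.7% with no scaling factor. In HEL that level was 105% of control with RLE, 103% with upper-quartile and 102% with no scaling factor. Leaving out single libraries gave 5 to 11 member rises and 2 to 6 falls in HEL, 1 to 4 and 7 to 13 in MOLM-13, and 2 to 8 positive and 0 to 1 negative differences. Over all genes it gave 2216 to 3566 higher and 1503 to 3205 lower in HEL, 1433 to 2300 lower in MOLM-13, and 658 to 1326 higher and 849 to 1912 lower differences. A lone library was assumed to vary like the other groups. The causes of these shifts were not tested. With 2 libraries a group and changes mostly under 1.5-fold, a member that was not called may still have changed.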
